A study of Mus musculus with 8 samples.

Results

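The 9 genes described here, Abcd3, Ehhadh, Hsd17b4, Acaa1a, Acaa1b, Eci2, Ech1, Crot and Pex11a, encode enzymes of peroxisomal fatty acid oxidation, with a fatty acid transporter (Abcd3) and a peroxisome division factor (Pex11a). They were chosen by symbol, for what their proteins do, and with earlier results of these data known. All 9 were among the 25239 symbols counted in every liver and among the 12977 genes with enough reads to be tested. Whole livers of 4 control and 4 Smo-KO mice were sequenced by bulk RNA-Seq. These were adult males of C57Bl6/J background, all Smo fl/fl, that ate the CDA-HFD, a choline-deficient high-fat diet with defined amino acids that induces steatohepatitis, for 6 weeks. Each mouse was injected in the tail vein 1 week before sacrifice with an AAV8 vector, a virus that reaches hepatocytes, whose gene was driven by the hepatocyte promoter TBG. The vector was AAV8-TBG-Luciferase in control mice, whose genotype is labelled WT although they carry the floxed allele, and AAV8-TBG-Cre Recombinase in Smo-KO mice. Smo, the receptor-like protein that passes on the Hedgehog signal, was therefore deleted only where Cre was made, and other liver cells kept it. The question was how deletion of Smo in hepatocytes changes a liver on this diet.

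Peroxisomes shorten very long chain, branched and dicarboxylic fatty acids that mitochondria handle poorly. Acyl-CoA enters through transporters of the ABCD family and is oxidized by acyl-CoA oxidases with release of hydrogen peroxide, hydrated and dehydrogenated by a bifunctional protein, and cut by a thiolase, and auxiliary isomerases deal with double bonds. The shortened chains leave as carnitine esters or free acids, and in rodent liver many of these genes are induced together by PPAR alpha, a nuclear receptor that senses fatty acids.

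Acaa1a and Acaa1b, the peroxisomal thiolases, are close paralogs that lie near each other on chromosome 9, so the sequences that the counts had to tell apart are shown first. Acaa1a spans chr9:119339676-119350299 on the plus strand and Acaa1b chr9:119148023-119157093 on the minus strand (GENCODE M21, GRCm38). Their coding sequences have the same length, 1272 bases, and are 96.5% identical, with 44 bases that differ and a longest identical run of 327 bases. The stretch of coding bases 453 to 552, counted from the first base of the start codon, holds 14 of the differences, which are in capitals and taken from the reference genome.
Acaa1a: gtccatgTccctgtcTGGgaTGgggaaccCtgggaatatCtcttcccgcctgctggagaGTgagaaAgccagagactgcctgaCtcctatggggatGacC
Acaa1b: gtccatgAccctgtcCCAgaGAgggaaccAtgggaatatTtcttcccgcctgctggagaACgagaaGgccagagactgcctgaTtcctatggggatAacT
A read that covers this stretch can be placed, whereas 21.65% of the 100-base stretches of the Acaa1a transcript and 30.5% of those of the Acaa1b transcript also occur in transcripts of other genes (360 of them shared by the 2 thiolases, the others of Acaa1b with Dlec1). For Eci2 the share was 6.92%, with Eci3 and the antisense gene Gm16984, for Crot it was 2.31%, with Gm37153, and for the other 5 genes it was 0%. Exons of Acaa1a also overlap those of genes on the opposite strand (Slc22a14 and Myd88) over 290 bases and exons of Acaa1b those of Dlec1 over 224 bases. Whether the counting used strand is not given in the sources used here, so values of the 2 thiolases and, to a smaller extent, of Eci2 and Crot carry this uncertainty.

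The 250 bases before the start site are shown for 4 genes picked by their values in these data. Acaa1a, Acaa1b and Eci2 had the smallest p-values, and Crot alone averaged lower in Smo-KO livers. That lower average was within its spread (log2 fold change -0.14, standard error 0.17, edgeR adjusted p = 0.750) and turned without control 3. Whether these sequences are related to the expression values was not tested. The sequences are from RefSeq, build GRCm38.p6, 5′ to 3′ on the strand of the gene, and capitals mark CCAAT boxes on either strand (CCAAT or ATTGG). Start sites are those of RefSeq, and the stretches of Acaa1a and Eci2 lie inside the GENCODE M21 gene spans (Eci2, chr13:34977748-35027096). That of Crot lies partly inside its span (chr5:8966033-8997324).
Acaa1a, chr9:119341044-119341293, plus strand: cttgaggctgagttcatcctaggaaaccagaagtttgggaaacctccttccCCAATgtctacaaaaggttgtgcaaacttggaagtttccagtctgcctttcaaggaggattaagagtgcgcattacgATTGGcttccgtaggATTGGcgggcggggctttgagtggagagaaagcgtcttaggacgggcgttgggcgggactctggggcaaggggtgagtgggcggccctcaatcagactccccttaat
Acaa1b, chr9:119157094-119157343, minus strand: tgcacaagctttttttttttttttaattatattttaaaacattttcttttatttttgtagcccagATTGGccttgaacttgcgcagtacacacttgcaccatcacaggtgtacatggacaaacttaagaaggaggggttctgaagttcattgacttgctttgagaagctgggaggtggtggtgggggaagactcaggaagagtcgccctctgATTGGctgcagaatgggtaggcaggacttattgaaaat
Eci2, chr13:34994145-34994394, minus strand: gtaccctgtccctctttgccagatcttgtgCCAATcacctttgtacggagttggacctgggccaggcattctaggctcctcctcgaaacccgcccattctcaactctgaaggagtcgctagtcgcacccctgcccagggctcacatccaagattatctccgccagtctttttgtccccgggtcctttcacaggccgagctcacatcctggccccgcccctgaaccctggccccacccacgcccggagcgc
Crot, chr5:8997147-8997396, minus strand: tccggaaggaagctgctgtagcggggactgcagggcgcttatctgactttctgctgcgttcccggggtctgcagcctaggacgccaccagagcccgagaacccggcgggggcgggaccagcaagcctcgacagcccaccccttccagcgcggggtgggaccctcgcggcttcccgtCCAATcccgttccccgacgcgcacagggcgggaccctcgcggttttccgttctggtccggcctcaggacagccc
Promoters of 8 of the 9 genes were searched on both strands, and that of Hsd17b4 was left out. None held the core nuclear receptor site AGGTCA, which 14.0% of 32851 mouse promoters of this length hold. None held the paired site bound by PPAR alpha, AGGTCANAGGTCA (which contains that core), with 2 mismatches or fewer, as 3.24% of all do. With shares this low, finding none in 8 promoters says little about these genes. Sites farther from the start or inside the genes were not searched. The CCAAT box, searched only after the sequences had been seen, was present 3 times for Acaa1a (199, 122 and 107 bases before the start), 2 times for Acaa1b (185 and 38) and 1 time each for Ehhadh (38), Eci2 (220) and Crot (74), and absent for Abcd3, Ech1 and Pex11a. It occurs in 33.9% of all promoters, and these matches of letters do not show binding.

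The targeted gene checks the labels. Smo measured 8.17, 8.49, 8.74 and 8.21 CPM (the usual scale of read counts relative to the size of each library) in control livers 1 to 4 and 5.67, 3.93, 4.27 and 4.37 CPM in Smo-KO livers 1 to 4. Every Smo-KO liver was below every control liver (log2 fold change -0.88, standard error 0.16, edgeR adjusted p = 0.0957, DESeq2 adjusted p = 0.00613). The highest Smo level among Smo-KO livers was that of Smo-KO 1. Reads came from whole liver, in which fewer cells of a type and less RNA per cell cannot be told apart. Between 8203299 (Smo-KO 3) and 9999732 (control 4) reads fell on genes, so that 3 reads equal 0.297 to 0.366 CPM, and totals did not differ beyond their spread (two-sided exact permutation p = 0.257). Each value of the 9 genes rests on 875 reads (Pex11a, control 3) to 11613 reads (Acaa1b, Smo-KO 4), far above that floor.

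Markers of liver cell types were read in the same libraries. The 6 hepatocyte markers (Alb the most abundant) summed to 25488 ± 1902 CPM in control and 24556 ± 698 CPM in Smo-KO livers (mean ± SD of 4 livers), which did not differ beyond their spread (two-sided exact permutation p = 0.486). Most of that sum was Alb (16570 ± 973 and 15338 ± 897 CPM), and single markers went both ways, with 2 of 6 higher and 4 lower. Cps1, the first enzyme of the urea cycle, was lower in every Smo-KO liver, at 919 ± 50.6 CPM in control and 733 ± 94.0 CPM in Smo-KO livers (log2 fold change -0.33, standard error 0.10, edgeR adjusted p = 0.218). The 4 counted of 5 T and NK cell markers (Nkg7 the most abundant, none at 0 in all livers) summed to 34.7, 32.5, 27.1 and 38.3 CPM in control and 15.9, 12.1, 22.6 and 21.1 CPM in Smo-KO livers. They were lower in every Smo-KO liver (two-sided exact permutation p = 0.0286, the smallest that 70 assignments allow; Benjamini-Hochberg adjusted p = 0.286 over 10 lists). Cd8a had a log2 fold change of -0.77, Nkg7 one of -0.94 and Cd3e one of -0.98 (edgeR adjusted p = 0.116, 0.140 and 0.175; DESeq2 adjusted p = 0.0143, 0.0121 and 0.0399). Summed markers of cholangiocytes (p = 0.429), macrophages (p = 0.857), endothelial cells (p = 0.343), stellate cells (p = 0.743), B cells (p = 0.714), neutrophils (p = 0.771), erythroid cells (p = 0.714) and adipocytes (p = 0.429) did not differ beyond their spread (exact permutation tests, two-sided). All 5 endothelial markers nevertheless averaged lower (median log2 fold change -0.26), Pecam1 by the most (-0.50, edgeR adjusted p = 0.292), and Col1a1, a collagen of stellate cells, had -0.36 (edgeR adjusted p = 0.248), with 3 of 6 stellate markers higher and 3 lower. Of the endothelial and stellate markers, only Pecam1 and Col1a1 had an unadjusted edgeR p under 0.05. The part of any of these markers in the values of the 9 genes was not tested. Hbb-bs, Hba-a1, Ly6g and Lep were listed at 0 in all 8 livers, and no adipocyte marker exceeded 1 read.

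Of the 9 genes, 8 averaged higher in Smo-KO livers and 1, Crot, averaged lower, with a median log2 fold change of 0.34. Over all 12977 genes tested the median was -0.000845 and 49.9% were higher. None of the 9 passed edgeR's adjusted p of 0.05, as was the case for all genes (0%, with 1797 genes at an unadjusted p under 0.05 and 163 by DESeq2's adjusted p). At an unadjusted edgeR p under 0.05, 6 of the 9 (Acaa1b, Eci2, Acaa1a, Pex11a, Abcd3 and Ehhadh) were higher, where 6.70% of all genes were, and 0 were lower, where 7.15% of all genes were. Values of the groups did not overlap for 2 of the 9, both higher in Smo-KO livers, against 3.03% of all genes higher and 4.34% lower without overlap. DESeq2, run as an alternative, gave an adjusted p under 0.05 for 3 of the 9 (Acaa1b, Eci2 and Acaa1a), all higher, against 0.660% of the 11967 genes to which it gave an adjusted p. These counts depended on single livers: without Smo-KO 1, edgeR's adjusted p passed for 2 of the 9 (Acaa1b and Eci2), both higher, against 0.344% of all genes higher. Without that liver groups did not overlap for 8 of the 9, against 8.06% of all genes higher, and without control 1 for 4 of the 9, against 5.89%. At an unadjusted p under 0.05, 8 of the 9 were higher without Smo-KO 1 (all genes, 8.96%). That count fell to 4 without Smo-KO 3 (all genes, 4.43%) and to 4 without control 4 (all genes, 5.64%). Leaving out Smo-KO 3 also lowered the median log2 fold change of the 9 to 0.22. Because the 9 genes and the lists below were chosen with earlier results of these data known, such counts are no independent evidence.

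**Figure D1:**
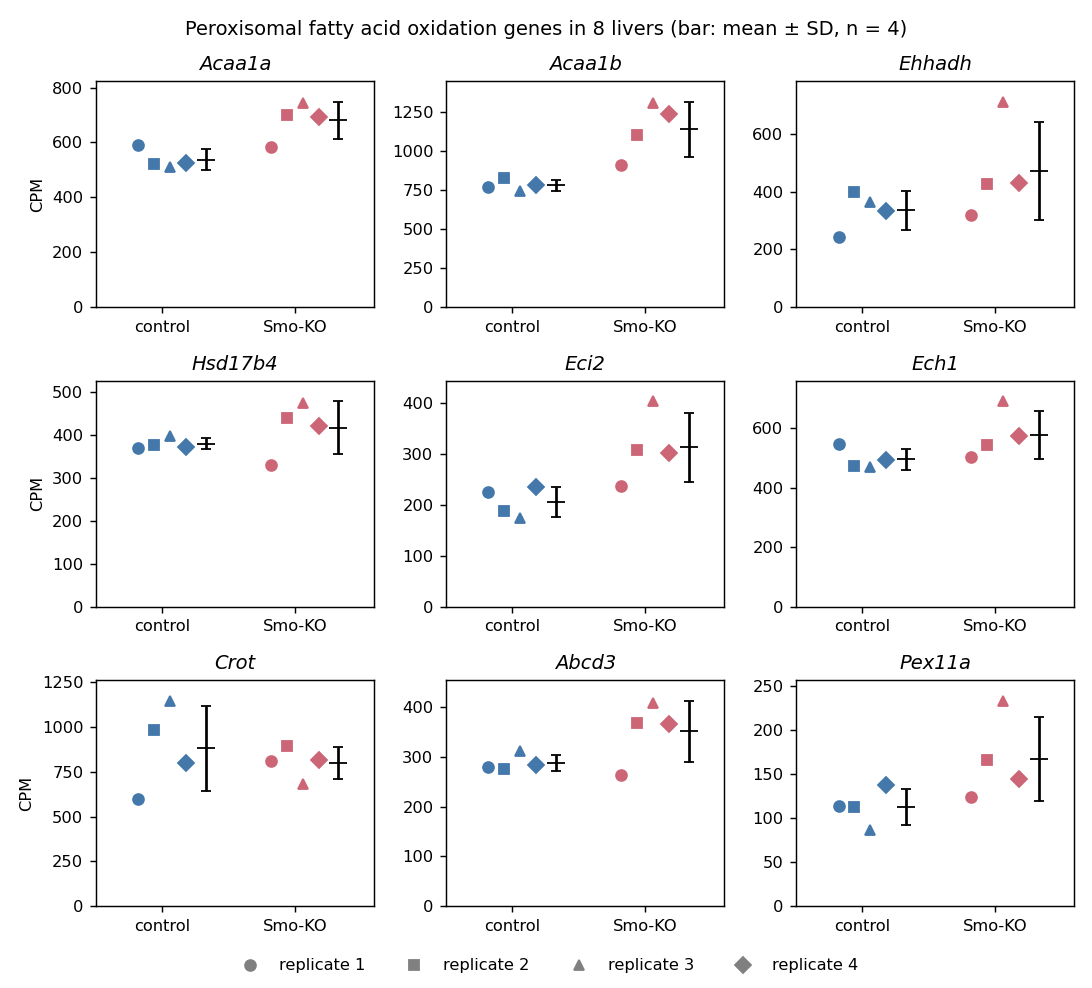
Level of each gene in CPM (vertical axes, from 0) in the 4 control and 4 Smo-KO livers. Symbols give the replicate number, which was not taken to pair the mice, and the bar beside each group is its mean ± SD. Acaa1b and Eci2 have no overlap between groups, Smo-KO 3 is the highest liver in 8 of the 9 panels, and Crot has its widest spread among control livers.

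Abcd3 encodes the abundant ABC transporter of the peroxisomal membrane that imports acyl-CoA. It measured 279, 276, 310.4 and 283 CPM in control livers and 263, 368, 407 and 365 CPM in Smo-KO livers. Smo-KO livers 2 to 4 lay above all control livers, and Smo-KO 1 lay below them all. The mean was 287 ± 15.7 CPM in control and 351 ± 61.4 CPM in Smo-KO livers (SD, n = 4 each). The log2 fold change was 0.29 (standard error 0.12, edgeR adjusted p = 0.318).

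Ehhadh and Hsd17b4 encode the 2 bifunctional proteins, which hydrate the double bond left by the oxidase and dehydrogenate the product. Ehhadh, the form best known for its induction by PPAR alpha, measured 244, 399.7, 364 and 332 CPM in control livers and 318, 428, 712 and 429 CPM in Smo-KO livers. The 712 CPM of Smo-KO 3 stood well apart from the other 7 livers, and Smo-KO 1 lay within the control range. The log2 fold change was 0.49 (standard error 0.21, edgeR adjusted p = 0.328), and 0.22 without Smo-KO 3 or 0.65 without Smo-KO 1. Hsd17b4, which also acts on branched chains and bile acid precursors, measured 370.2, 376, 398 and 373 CPM in control livers and 331, 440.3, 475 and 421 CPM in Smo-KO livers. Its pattern was that of Abcd3, with Smo-KO 1 below and the other Smo-KO livers above every control liver. The log2 fold change was 0.14 (standard error 0.11, edgeR adjusted p = 0.604), and 0.067 without Smo-KO 3 or 0.24 without Smo-KO 1.

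The thiolases cleave the 3-ketoacyl-CoA in the last step of each cycle. Acaa1b measured 768, 824, 745 and 779 CPM in control livers and 910.0, 1104, 1311 and 1238 CPM in Smo-KO livers. All 4 Smo-KO livers exceeded all 4 control livers. The mean was 779 ± 33.2 CPM in control and 1141 ± 176 CPM in Smo-KO livers, 46.4% higher (log2 fold change 0.55, standard error 0.11, edgeR adjusted p = 0.116), the smallest p of the 9 genes. Acaa1a measured 592, 520.0, 510.0 and 525 CPM in control livers and 584, 698, 745 and 694 CPM in Smo-KO livers. Control 1 and Smo-KO 1 overlapped, and the other 3 Smo-KO livers were above all control livers (log2 fold change 0.34, standard error 0.097, edgeR adjusted p = 0.176).

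Because reads can be assigned to the wrong thiolase, their sum and their ratio were also taken. Summed to 1 feature, they measured 1316 ± 46.9 CPM in control and 1821 ± 241 CPM in Smo-KO livers, with no overlap (log2 fold change 0.47, standard error 0.10, edgeR adjusted p = 0.132). Acaa1b held 56.5%, 61.3%, 59.4% and 59.7% of the summed reads in control livers and 60.9%, 61.2%, 63.7% and 64.1% in Smo-KO livers. The shares overlapped, at 59.2% ± 2.03 and 62.5% ± 1.64 (SD, n = 4 each), a difference of 3.27 percentage points (two-sided exact permutation p = 0.0857, where the smallest p that 70 assignments allow is 0.0286). Without control 2 the shares did not overlap, with a difference of 3.97 points (two-sided exact permutation p = 0.0286), and without control 1 the difference was 2.35 points (p = 0.171, by the same exact test).

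Eci2 and Ech1 encode auxiliary enzymes that move double bonds of unsaturated fatty acids into the position that the cycle can use. Eci2 measured 225, 187, 174 and 234 CPM in control livers and 237, 307, 403 and 301 CPM in Smo-KO livers. The groups did not overlap, but only narrowly, since Smo-KO 1 was 237 CPM and control 4 was 234 CPM. Its log2 fold change was 0.61 (standard error 0.15, edgeR adjusted p = 0.146), the largest of the 9 with all livers, although Acaa1b had a larger one without Smo-KO 3 (0.48 against 0.46), Ehhadh and Acaa1b without control 2 (0.59 and 0.58 against 0.57) and Pex11a without Smo-KO 4 (0.63 against 0.62). Ech1 measured 546, 474, 469.6 and 495 CPM in control livers and 504, 545, 691 and 575 CPM in Smo-KO livers. Control 1 lay above 2 of the Smo-KO livers, and the log2 fold change was 0.22 (standard error 0.11, edgeR adjusted p = 0.377), or 0.12 without Smo-KO 3.

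Crot encodes the carnitine octanoyltransferase that prepares shortened chains for export to mitochondria. It measured 595, 984, 1144 and 796 CPM in control livers and 809, 893, 678 and 813 CPM in Smo-KO livers. The Smo-KO values lay inside the control range, and control livers differed more among themselves than the groups did (880 ± 237 CPM against 798 ± 89.0 CPM, SD, n = 4 each). The log2 fold change was -0.14 (standard error 0.17, edgeR adjusted p = 0.750), and 0.017 without control 3. Smo-KO 3, the highest of the 8 livers for the other 8 genes, was the lowest Smo-KO liver for Crot.

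Pex11a encodes a membrane protein that promotes elongation and division of peroxisomes. It measured 114, 112, 87.0 and 137 CPM in control livers and 124, 166, 233 and 144 CPM in Smo-KO livers. Smo-KO 1 lay below control 4, and the other Smo-KO livers lay above every control liver. The log2 fold change was 0.56 (standard error 0.18, edgeR adjusted p = 0.220), and 0.36 without Smo-KO 3.

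The Smo-KO livers were not alike. Relative to each gene's control mean on the log2 CPM scale, the median over the 9 genes was 0.024 in Smo-KO 1, 0.38 in Smo-KO 2, 0.50 in Smo-KO 3 and 0.37 in Smo-KO 4, against -0.020, -0.013, -0.064 and -0.00081 in control livers 1 to 4. By this median Smo-KO 1 lay near the control livers, but single genes departed both ways. It exceeded all control livers in 2 of the 9 genes (Acaa1b and Eci2) and lay below them all for Abcd3 and Hsd17b4. All control livers were exceeded in 7 genes by Smo-KO 2, in 8 by Smo-KO 3 and in 8 by Smo-KO 4. Smo-KO 1 was the lowest of its group in 8 of the 9 genes, and it was the Smo-KO liver with the most remaining Smo reads (5.67 CPM). Whether its remaining Smo and its values of the 9 genes are related was not tested. Smo-KO 3 was the highest of all 8 livers in 8 of the 9 genes and had the fewest reads on genes. Its part in these values was not tested beyond leaving it out, which gave a median log2 fold change of 0.22 over the 9 genes. Among control livers, control 3 was the lowest of its group in 5 of the 9 genes and the highest in 3.

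**Figure D2:**
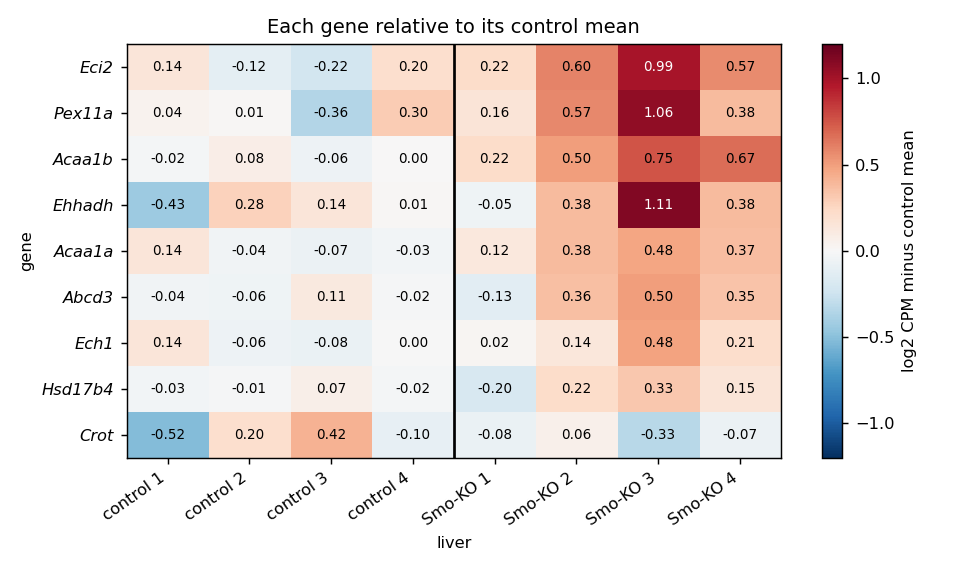
Difference of each gene's log2 CPM from its control mean (color scale, and the number in each cell) for the 9 genes (rows, in order of log2 fold change) and 8 livers (columns). Smo-KO 2 to 4 are above 0 for 8 genes, Smo-KO 1 is nearer to 0 than the other Smo-KO livers for most genes, and Crot differs from the other rows.

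Per kilobase of the principal transcript, control livers held most Acaa1b (461 ± 19.7 CPM per kb), then Ech1 (392 ± 27.8), Acaa1a (305 ± 21.3), Crot (294 ± 79.2), Hsd17b4 (141 ± 4.80), Eci2 (117 ± 16.5), Ehhadh (112 ± 22.3), Abcd3 (82.3 ± 4.50) and Pex11a (50.3 ± 9.22; all SD, n = 4). The ranges of Acaa1a and Crot overlapped, as did those of Eci2, Ehhadh and, with Ehhadh, Abcd3, whereas other neighbours in this order did not. All 9 stood high among liver genes, with, in control livers, 86.7% (Pex11a) to 98.8% (Acaa1b) of 12810 genes lower per kilobase. In Smo-KO livers the order was the same except that Eci2 (179 ± 39.1 CPM per kb) and Ehhadh (158 ± 56.5) averaged above Hsd17b4 (155 ± 22.9), with overlapping ranges.

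**Figure D3:**
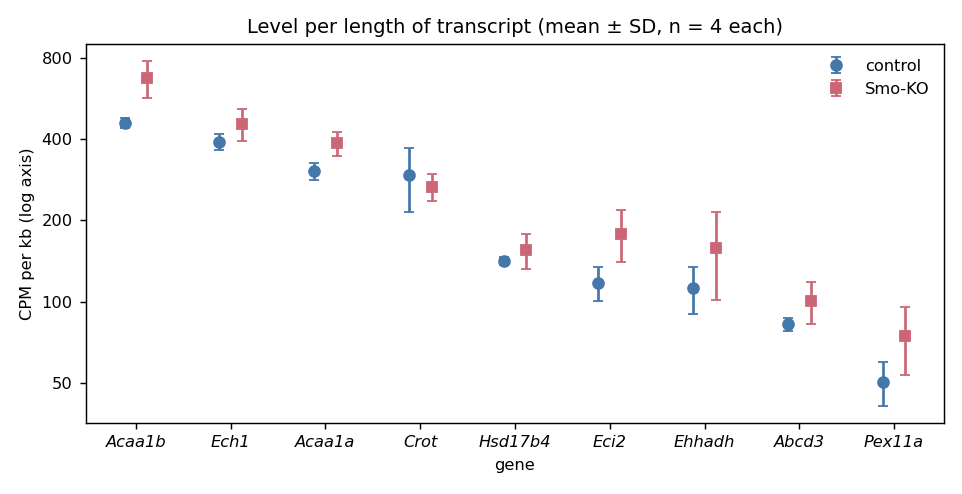
Level per kilobase of transcript (CPM per kb, log axis) of the 9 genes in control (circles) and Smo-KO livers (squares), mean ± SD of 4 livers each. Acaa1b is highest and Pex11a lowest in both groups, and the Smo-KO mean is above the control mean for every gene but Crot.

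The other genes of peroxisomal lipid oxidation, among them the oxidases, thioesterases and further transporters, averaged higher for the most part. Of 24 tested out of 26 listed (Eci3 and Acot5 had too few reads), 17 were higher and 7 lower, with a median log2 fold change of 0.17; at an unadjusted p under 0.05, 8 were higher and 1 lower, against 6.70% and 7.15% of all genes. None passed edgeR's adjusted p, 2 were higher by DESeq2's (all genes, 0.660%), and 5 were higher without overlap of the groups (all genes, 3.03%). Without Smo-KO 3 the median was 0.084, with 6 higher at an unadjusted p under 0.05 (all genes, 4.43%). Without Smo-KO 1, 10 were higher at that p (all genes, 8.96%) and 9 were higher without overlap (all genes, 8.06%).

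Acot12, a thioesterase of acetyl-CoA that is best known from the cytosol, measured 117, 110.2, 117 and 123 CPM in control livers and 128, 171, 171 and 165 CPM in Smo-KO livers (log2 fold change 0.44, standard error 0.10, edgeR adjusted p = 0.133, DESeq2 adjusted p = 0.0131; without Smo-KO 1, edgeR adjusted p = 0.0266). Abcd2, a transporter of the same family as Abcd3, measured 14.1, 16.7, 18.8 and 19.9 CPM in control and 23.8, 24.2, 23.9 and 22.5 CPM in Smo-KO livers (log2 fold change 0.44, standard error 0.12, edgeR adjusted p = 0.160). In both, all Smo-KO livers exceeded all control livers. Acot3, a peroxisomal thioesterase with close paralogs, measured 4.76, 3.04, 2.48 and 5.74 CPM in control and 7.53, 8.83, 47.9 and 11.9 CPM in Smo-KO livers. Its log2 fold change of 2.23 (standard error 0.56, edgeR adjusted p = 0.151) was 1.23 without Smo-KO 3.

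Genes that build the organelle were evenly divided. Of 22 peroxisome biogenesis and division genes, 11 averaged higher and 11 lower (median log2 fold change 0.0048), with 2 higher and 0 lower at an unadjusted p under 0.05, where 6.70% of all genes were higher and 7.15% lower. With 1 liver left out, 9 (without control 2) to 14 (without Smo-KO 1) averaged higher. The median then ranged from -0.018 (without control 2) to 0.051 (without Smo-KO 3), with 1 to 3 higher at that p (all genes, 4.43% to 8.96%). Pex19, a chaperone of peroxisomal membrane proteins, had a log2 fold change of 0.23 (standard error 0.081, edgeR adjusted p = 0.249), and Lonp2, a peroxisomal protease, one of -0.21 (standard error 0.097, edgeR adjusted p = 0.365), both with groups that did not overlap. Among the 22, 1 was higher without overlap and 2 were lower, the other being Pex5 (-0.11, edgeR adjusted p = 0.565). Of all genes, 3.03% were higher and 4.34% lower without overlap. Pxmp2, a channel of the peroxisomal membrane, had 0.28 (edgeR adjusted p = 0.338).

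Enzymes of other peroxisomal pathways were likewise divided, with 7 of 14 tested higher and 7 lower (median log2 fold change 0.0067). Dao had too few reads to be tested. At an unadjusted p under 0.05, 2 were higher and 1 lower (all genes, 6.70% and 7.15%). Leaving out control 2, control 3 or Smo-KO 3 gave 0 higher and 1 lower each time (all genes higher, 6.27%, 5.15% and 4.43%). Cat, the catalase that removes the hydrogen peroxide made by oxidases, measured 2256, 2092, 1902 and 1913 CPM in control and 1741, 2163, 1776 and 1852 CPM in Smo-KO livers. These values overlapped (log2 fold change -0.12, standard error 0.10, edgeR adjusted p = 0.645), with -0.064 without control 1 and -0.19 without Smo-KO 2. Agxt, which detoxifies glyoxylate, measured 389, 282, 290.2 and 267 CPM in control and 253, 225, 160.2 and 257 CPM in Smo-KO livers, every Smo-KO liver below every control liver (log2 fold change -0.46, standard error 0.15, edgeR adjusted p = 0.240, DESeq2 adjusted p = 0.142). Ddo, an oxidase of D-aspartate, had a log2 fold change of 0.29 (edgeR adjusted p = 0.284), Ephx2, an epoxide hydrolase, 0.30 (edgeR adjusted p = 0.329; 0.18 without Smo-KO 3) and Prdx5, a peroxiredoxin, 0.13 (edgeR adjusted p = 0.624; 0.061 without Smo-KO 4 and 0.20 without Smo-KO 1).

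Among 17 genes of mitochondrial beta-oxidation, 14 averaged higher and 3 lower, with a median log2 fold change of 0.13, below that of the 9 peroxisomal genes; 5 were higher and 0 lower at an unadjusted p under 0.05 (all genes, 6.70% and 7.15%). Groups did not overlap for 0 of the 17 (all genes, 3.03% higher and 4.34% lower). Without Smo-KO 3, 0 of the 17 were at an unadjusted p under 0.05, and without Smo-KO 1, 7 were higher at that p and 6 without overlap (all genes, 8.96% and 8.06%). Decr1, a reductase for unsaturated chains, had a log2 fold change of 0.34 (standard error 0.12, edgeR adjusted p = 0.263), Eci1, the mitochondrial counterpart of Eci2, 0.33 (standard error 0.14, edgeR adjusted p = 0.315; 0.17 without Smo-KO 3), Slc25a20, the carnitine carrier, 0.29 (standard error 0.12, edgeR adjusted p = 0.306) and Cpt1a, the gate enzyme, 0.24 (standard error 0.093, edgeR adjusted p = 0.290).

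PPAR alpha itself and its partners gave 8 of 15 higher and 7 lower (median log2 fold change 0.011), 1 in each direction at an unadjusted p under 0.05, a share close to that of all genes (6.70% higher and 7.15% lower). These counts moved with single livers, to 3 higher and 0 lower without control 1 (all genes higher, 7.57%). They were 2 and 0 without Smo-KO 3 (all genes higher, 4.43%) and 1 and 2 without Smo-KO 1 (all genes higher, 8.96%). Ppara measured 213, 162, 150 and 194 CPM in control and 197, 253, 181 and 210.3 CPM in Smo-KO livers, with wide overlap (log2 fold change 0.23, standard error 0.13, edgeR adjusted p = 0.463), or 0.13 without Smo-KO 2. Sirt1, a deacetylase that acts on PPAR alpha coactivators, had a log2 fold change of 0.40 (standard error 0.13, edgeR adjusted p = 0.241), Crebbp, an acetyltransferase, -0.42 (standard error 0.19, edgeR adjusted p = 0.346) and Ncoa1, a coactivator, -0.22 (standard error 0.12, edgeR adjusted p = 0.430). Other targets of PPAR alpha had a larger median, 0.55, with 12 of 13 higher, and 11 higher and 1 lower at an unadjusted p under 0.05 (all genes, 6.70% and 7.15%). Groups did not overlap for 4 of the 13, all higher (all genes, 3.03%), and 3 were higher by DESeq2's adjusted p (all genes, 0.660%). Smo-KO 3 weighed on this list as well: without it the median was 0.29, with 6 higher and 1 lower at an unadjusted p under 0.05 (all genes higher, 4.43%) and 4 higher without overlap (all genes, 3.84%). Without Smo-KO 1, 8 were higher and 1 lower without overlap (all genes higher, 8.06%). The count higher without overlap was 6 without control 3 (all genes, 4.27%) and 6 without Smo-KO 2 (all genes, 5.12%). This list was known from earlier results of these data, so its direction is no independent evidence. Vnn1, a pantetheinase, had a log2 fold change of 0.88 (standard error 0.22, edgeR adjusted p = 0.146, DESeq2 adjusted p = 0.0112), Slc22a5, which takes up carnitine, 0.59 (standard error 0.13, edgeR adjusted p = 0.126, DESeq2 adjusted p = 0.00902), Creb3l3, a transcription factor of hepatic lipid metabolism, 0.36 (standard error 0.096, edgeR adjusted p = 0.163, DESeq2 adjusted p = 0.0292) and Acot1, a thioesterase, 0.99 (standard error 0.31, edgeR adjusted p = 0.217), or 0.52 without Smo-KO 3. The 1 lower gene was Fgf21, a hormone made by the liver and named after its value was seen. Its log2 fold change was -1.48 (standard error 0.52, edgeR adjusted p = 0.247), with groups that overlapped. Without Smo-KO 1 it was -2.43 (edgeR adjusted p = 0.0266). Without any other single liver it lay between -1.73 (without control 2) and -1.18 (without control 1). In those runs the edgeR adjusted p was 0.257 (without control 2) to 0.49 (without Smo-KO 3).

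**Figure D4:**
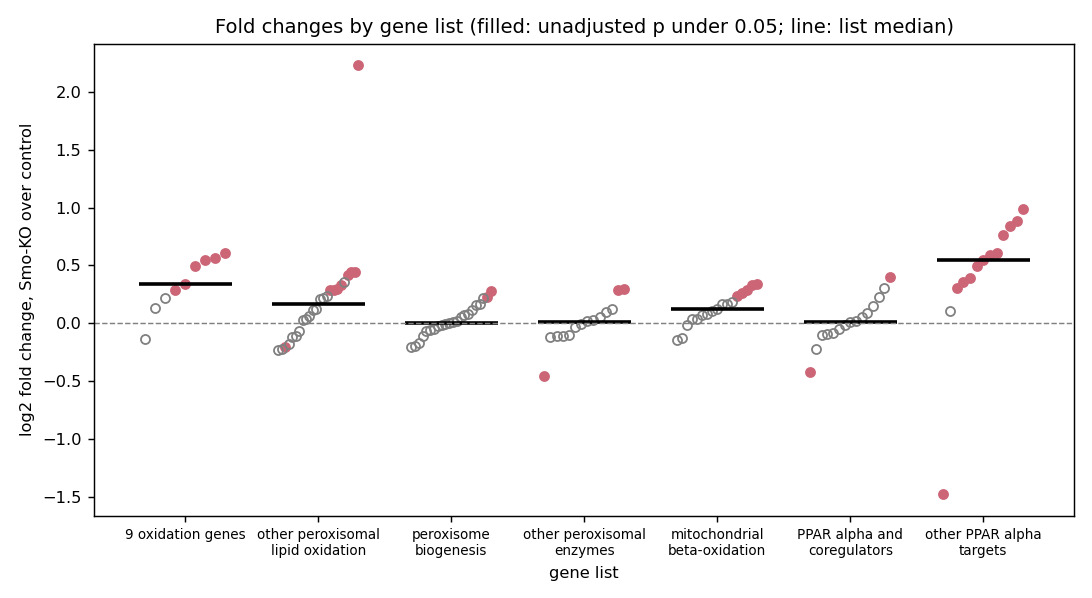
Log2 fold change of Smo-KO over control livers (vertical axis) for each tested gene of 7 lists (horizontal axis); filled points have an unadjusted edgeR p under 0.05 and the black line is the list's median. The 9 genes have a median of 0.34, peroxisome biogenesis and other peroxisomal enzymes have medians near 0, and the other PPAR alpha targets have a median of 0.55.

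Outside the 9, the genes whose pattern over the 8 livers lay nearest to the average pattern of the 9 were Pigp, Fra10ac1, Ephx2, Ly6g2 and Emsy, with mean absolute log2 differences of 0.0369, 0.0406, 0.0469, 0.0533 and 0.0547. The median over all genes tested was 0.260, and the 9 genes themselves ranged from 0.0687 (Abcd3) to 0.367 (Crot). Ephx2 is the only one of these 5 that the peroxisomal lists hold. It measured 525, 547, 530.0 and 527 CPM in control and 487, 689, 806 and 631 CPM in Smo-KO livers, with Smo-KO 1 below and the other Smo-KO livers above every control liver, as for Abcd3 and Hsd17b4. With 1 liver left out, 1 to 4 of these 5 genes were again among the nearest 5.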

How the data were processed

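For each liver the authors deposited whole-number read counts for 25239 gene symbols, without normalization. The submitters' processing notes name fastp, STAR 2.7.5, featureCounts 2.0.1 and the build GRCm38; the lists end with entries that htseq-count writes (reads on no feature were 7.56% to 9.68% of counted reads per liver), which entered neither library sizes nor tests. The annotation and strand setting are not given in the sources used here. From these counts, filterByExpr, TMM scaling and the quasi-likelihood test of edgeR 4.0.16 (R 4.3.3) compared 4 Smo-KO with 4 control livers, genotype as the only term, with Benjamini-Hochberg adjustment over 12977 genes; standard errors are those implied by the F statistic. CPM use the scaled library size, with a prior count of 2 on the log2 scale. Single values per liver used exact permutation tests, two-sided. DESeq2 1.42.0 was an alternative, as were other scalings and filters, the replicate number as a term, leaving out each liver and summing the thiolases. The procedure was also run on simulated data, and the outcome of that run is not given here. Libraries of 1 group were not copies of each other (chi-square of at least 8.17 per degree of freedom).

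The 9 genes, the other lists, the tests and the rule for named genes (all 9, Smo, Ppara, Cat, the 4 smallest p per list and the 5 nearest in pattern) were chosen with earlier results of these data known. Results of 2 single genes that the rule names are not reported here; all counts include them. Gene positions and transcripts came from GENCODE M21 and promoters from RefSeq; 100-base stretches were compared between all transcripts. Molecular identifiers are not given, so depth describes counting error only. Figures were drawn with matplotlib 3.10.9.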

Additional observations from a re-analysis of the deposited data

Results flagged for a closer look

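Of 102 groups of 4 values examined (a gene, a marker sum or a total within control or Smo-KO livers), 7 held 1 liver far from the other 3, where chance alone gives about 5.1. In Smo-KO 1, Acot12 was 128 CPM (the others 165 to 171), Pex19 was 127 CPM (143 to 145) and the adipocyte marker sum was 0.103 CPM, a single read (0 in the others). In Smo-KO 3, Acot3 was 47.9 CPM (7.53 to 11.9), Vnn1 was 81.5 CPM (49.9 to 54.5) and reads on genes numbered 8203299 (9367795 to 9543675). In control 3, Lonp2 was 455 CPM (409 to 415). None of the 9 peroxisomal oxidation genes was among them.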

How the results depend on the processing

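All 9 peroxisomal oxidation genes except Crot kept their direction under every alternative run, and the median log2 fold change of the 9 stayed above 0. Without control 3, Crot turned to 0.017 (range with any 1 liver left out, -0.29 to 0.017). Without a filter on low counts, edgeR's adjusted p passed 0.05 for 1 of the 9 (Acaa1b) and for 61 of all genes, and DESeq2 passed 3 of the 9 and 163 genes, against 0 and 0. With 1 liver left out, 0 to 2 of the 9 passed, 2 to 8 were higher without overlap of the groups (against 3.84% to 8.06% of all genes), and 0 to 78 of all genes passed (78 without Smo-KO 1, 5 without control 1, 4 without Smo-KO 3); the cause was not tested. The replicate block gave 8 genes, 0 of them among the 9. Same-numbered mice correlated at 0.0611 to 0.187, and 3 of the 4 numbers had their own number as the best partner. These values do not settle whether the number pairs mice, and it was not taken to pair them. No scaling moved the median of all genes by over 0.1.

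Of the alternative values, 681 for single genes, gene lists and similar quantities stayed on the same side of their threshold or, for values without one, within 1 SD or 1.5 times of the value given, 17 newly passed it, 39 moved further and 1 reversed. For the counts over the 9 or all genes, the median of the 9 and the share of Acaa1b, 71 stayed within 1.5 times the count or 1 SD of the value and 11 moved further. The smallest adjusted p over all genes was 0.0785. The lists without each liver were added after seeing the data.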
